A study of Mus musculus with 9 samples.

Results

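I2 is a cluster of spinal cord interneurons that were sorted as cholinergic but held little Chat transcript, Chat being the enzyme that makes acetylcholine. Its members were the nuclei named I2 in the deposited annotation, 780 of 5375 nuclei in the interneuron clusters I1 to I8, of 16042 cholinergic nuclei and of 34231 annotated nuclei. The study sorted nuclei from the spinal cords of mice aged 8 weeks, of the strain Chat-IRES-Cre::Sun1-sfGFP and the genotype Chat-iCre:+/wt; SUN-SfGFP:+/wt, in which Cre expressed from the Chat locus marks the nuclear envelope with a green fluorescent protein. Every library carried both alleles, so there was no group without them, and a nucleus could enter the sort through past as well as present Cre expression. Each of 3 pools of 4 mice (2 male and 2 female, 4 male, 4 female; replicates 1, 2 and 3) gave a library from the cervical, the thoracic and the lumbar/sacral cord, in all 9 single-nucleus RNA libraries, 3 a region. The questions taken up here are what distinguishes I2 from the other interneuron clusters within a library, and how I2 nuclei differ along the cord, and between the male and the female pool. The libraries are pools and there are 3 a region, so p-values measure only the spread between these pools.

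Cholinergic interneurons of the spinal cord lie around the central canal and in the intermediate zone and dorsal horn, and modulate motor and sensory circuits. Neurons that release acetylcholine need Chat to make it and Slc5a7, the high-affinity choline transporter, to take up choline. GABA is made by the glutamate decarboxylases Gad1 and Gad2 and packed into vesicles by Slc32a1, and Slc6a5 takes up glycine into glycinergic terminals. Pax2 is a transcription factor of inhibitory spinal neurons.

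The values are corrected counts of transcripts per nucleus. I2 held 113, 31 and 76 nuclei in the cervical libraries of replicates 1, 2 and 3, 55, 103 and 50 in the thoracic ones and 128, 129 and 95 in the lumbar/sacral ones. The median corrected total of an I2 nucleus ran from 4408 in lumbar/sacral replicate 1 to 16309 in cervical replicate 2, so shares of nuclei with a count are given as deposited and after each nucleus was thinned to 4600 corrected counts. At that depth 83 of 128 I2 nuclei of lumbar/sacral replicate 1 and 19 of 95 of lumbar/sacral replicate 3 were too shallow and were left out, and none elsewhere. Of 34101 distinct barcode sequences, 130 were found in 2 libraries, 6 of them in I2 nuclei.

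Cervical replicate 2 and thoracic replicate 2 went against their labels in the Hox genes, which mark position along the body axis. Over all cholinergic nuclei, Hoxa9 stood at 0.412, 9.68 and 0.213 CPM (the share of the summed counts, scaled to a total of 1e+06) in the libraries labelled cervical replicates 1, 2 and 3, and at 9.35, 0.507 and 9.04 CPM in those labelled thoracic. In I2 alone Hoxc5 stood at 26.4, 129 and 27.9 CPM in the cervical libraries and at 145, 14.1 and 145 CPM in the thoracic ones, so both replicate 2 libraries sat with the other label. Hoxd11 was listed at 0 in I2 of all 6 cervical and thoracic libraries and at 19.7, 14.0 and 18.2 CPM in the 3 lumbar/sacral ones, so those 3 libraries stood together. Cervical replicate 2 also stood apart in that 27.7% of its skeletal motor neuron nuclei held Pax2 and 32.5% held Nos1, which in the other libraries was at most 6.3% and 6.0%. The counts of genes called between regions, and the regional share of I2, are given with and without both replicate 2 libraries. Most other values by region, and the male against female fit, are not given without both. The libraries are named by their labels throughout.

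The labelled cell type was checked against its markers. Gad2 was found in 74.8% ± 18.5 of I2 nuclei and Pax2 in 71.2% ± 11.8 (SD, n = 9 libraries). The skeletal motor neuron markers Tns1, Isl1 and Mnx1 were near 0. Tns1 was in 0% to 4.0% of I2 nuclei against 68.7% to 97.4% of skeletal motor neuron nuclei, Isl1 in at most 0.775% and Mnx1 in at most 1.32%. The 4 skeletal motor neuron markers summed to 2.06 to 15.9 CPM in I2 and to 7.82 to 22.6 CPM in the other I clusters. The visceral motor neuron markers Zeb2 and Fbn2 summed to 8.45 to 45.2 CPM in I2, highest in cervical replicate 2, and to 6.75 to 25.7 CPM in the others. In the cervical libraries Zeb2 was in 12.1% ± 9.41 and Fbn2 in 11.3% ± 9.98 of I2 nuclei, against 4.93% and 6.06% of other I nuclei. Thoracic I2 had 1.64% and 6.37% and lumbar/sacral I2 3.39% and 5.56%. The 13 glial and other non-neuronal markers summed to 63.4 to 120 CPM in the cervical and thoracic I2 libraries and 96.7 to 113 CPM in the lumbar/sacral ones. In the other I clusters they summed to 83.6 to 142 CPM. Mbp was in 25.4%, 25.3% and 15.5% of cervical, thoracic and lumbar/sacral I2 nuclei, and in 19.2%, 14.7% and 10.8% of other I nuclei. Slc1a2 was in 20.8%, 13.2% and 17.0% of I2 nuclei and in 39.2%, 34.1% and 18.6% of other I nuclei. Cspg4 and Dcn were at 0 in all I2 libraries. The reporter transcript was listed in 3.52% ± 2.69 of I2 nuclei and in 8.49% ± 3.21 of the other I nuclei.

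I2 made up 14.7%, 19.3% and 16.5% of the interneuron nuclei in the cervical libraries, 13.4%, 15.7% and 11.8% in the thoracic ones and 11.6%, 18.0% and 14.1% in the lumbar/sacral ones. The regional means of 16.8% ± 2.30, 13.6% ± 1.97 and 14.6% ± 3.22 (SD, n = 3 each) overlapped in their libraries and did not differ beyond that spread (exact permutation test over all assignments to regions, two-sided p = 0.357). The male libraries held 17.7% and the female ones 14.1%, with a p of 0.25 in the exact permutation test, which with 8 assignments is the smallest it allows.

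Chat was less often found in I2 than in the other I clusters in 9 of 9 libraries. A Chat count was present in 22.1%, 48.4% and 40.8% of I2 nuclei in the cervical libraries, in 29.1%, 28.2% and 34.0% in the thoracic ones and in 21.9%, 34.9% and 30.5% in the lumbar/sacral ones. In the other I clusters pooled, the lowest share was 44.4%, in lumbar/sacral replicate 1, and the highest 93.8%, in cervical replicate 2. The means were 32.2% ± 8.54 and 68.1% ± 14.7, a gap of -35.9 ± 10.1 percentage points, and 21.0% against 55.4% after thinning. The clusters were built from these same genes, so this and every comparison of I2 with other clusters below is a description with no test. No nuclei outside the cholinergic classes have counts in the matrix, so the share of Chat from free RNA was not measured here.

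Slc5a7 was lower still, in 18.8% ± 7.95 of I2 nuclei against 65.1% ± 14.4 of the other I nuclei. Ache, which breaks down acetylcholine, was in 24.6% of I2 and 35.5% of other nuclei. Of the 5 acetylcholine genes that passed the filter on low values, Chat and Slc5a7 were lower in I2 by the rule used here (a mean difference of at least 1 on the log2 scale with the same sign in 9 of 9 libraries) and none was higher. As summed levels, Chat stood at 53.0 ± 16.6 CPM in I2 and 214 ± 35.5 CPM in the other I clusters, a difference of -1.96 ± 0.60 on the log2(CPM + 5) scale (SD over 9 libraries), and Slc5a7 at 37.4 ± 24.8 against 227 ± 51.2 CPM, a difference of -2.67 ± 1.16. The vesicular acetylcholine transporter Slc18a3 was not analysed here.

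**Figure D1:**
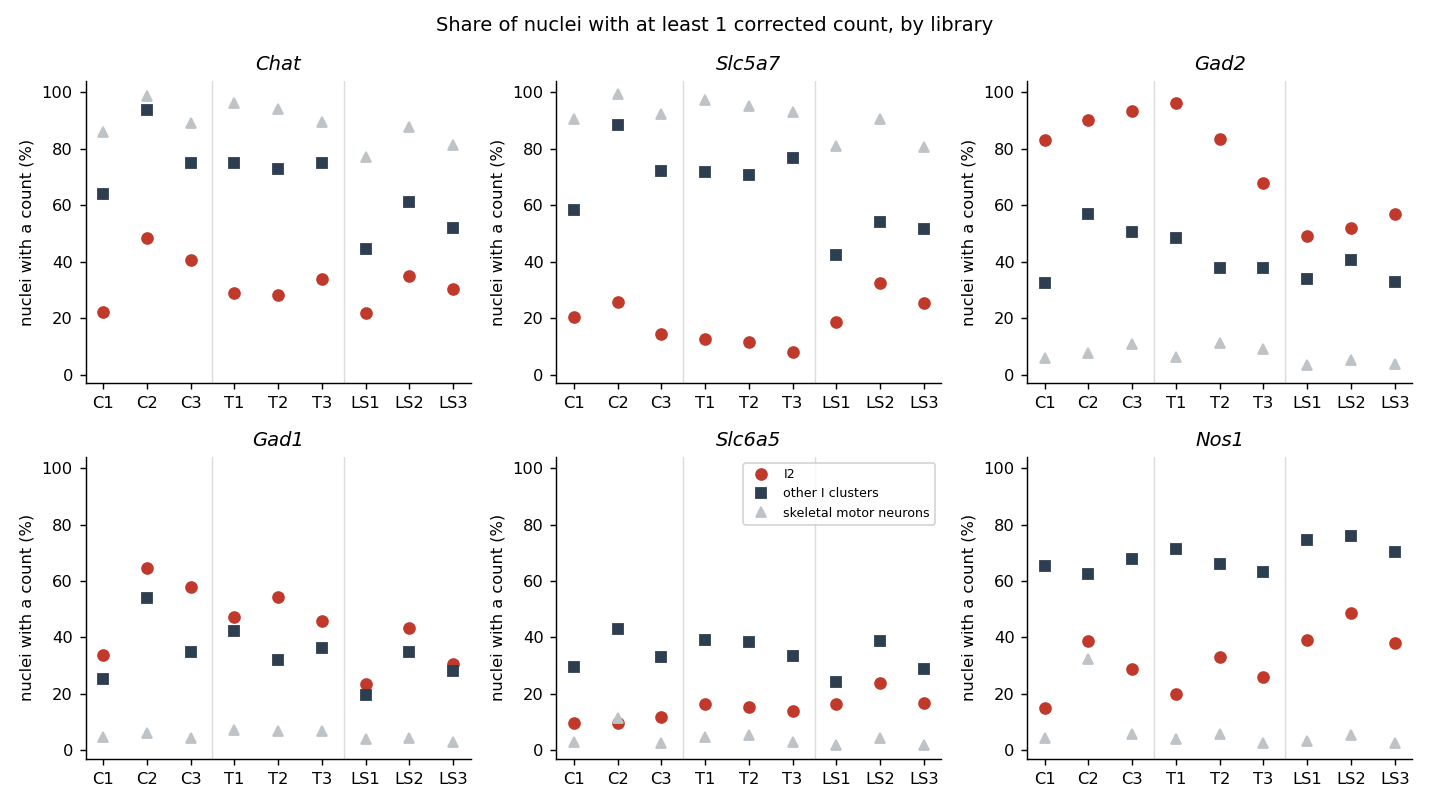
Share of nuclei (%, y axis) with at least 1 corrected count of 6 genes in each library (x axis; C, T and LS are the cervical, thoracic and lumbar/sacral libraries and the numbers their replicates) for I2 (circles), the other I clusters pooled (squares) and skeletal motor neurons (triangles). I2 lies below the other I clusters for Chat, Slc5a7, Slc6a5 and Nos1 in all 9 libraries and above them for Gad2 and Gad1 in all 9.

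Gad2 was found more often in I2 than in the other I clusters and Slc6a5 less often, in 9 of 9 libraries each. Gad2 was in 83.2%, 90.3% and 93.4% of I2 nuclei in the cervical libraries, in 96.4%, 83.5% and 68.0% in the thoracic ones and in 49.2%, 51.9% and 56.8% in the lumbar/sacral ones. All 9 shares were above those of the other I clusters, which averaged 41.2% ± 8.71, and above those of skeletal motor neurons, which lay between 3.58% and 11.2%. Gad1 was in 44.6% of I2 and 34.1% of other nuclei. Slc6a5 was in 14.9% of I2 and 34.2% of other nuclei, and Pax2 in 71.2% and 69.5%, a gap smaller than the spread over libraries. Among the 8 GABA and glycine genes measured, Gad2 was higher by the rule (232 ± 71.2 against 97.3 ± 11.4 CPM, +1.15 ± 0.48). Slc6a5 was lower (27.9 ± 15 against 114 ± 31.3 CPM, -1.93 ± 0.55) and the other 6 met neither side. By single cluster, Slc6a5 stood at 874 CPM in I8, 119 to 122 CPM in I3 and I4 and 3.73 to 48.0 CPM in the rest. Gad2 stood at 201 and 189 CPM in I3 and I4, 106 and 64.1 CPM in I1 and I7 and 6.53 to 6.82 CPM in I5, I6 and I8. Gad1 stood at 75.7 CPM in I2, below I1, I3 and I4 (81.6, 110 and 106 CPM) and above I5, I6 and I8 (5.52 to 7.05 CPM). The glutamate transporter Slc17a6 was at 4.55 CPM in I2 and 10.7 CPM in the others, which met neither side of the rule.

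A decarboxylase without Chat was the commonest combination in the mean over 9 libraries. There, 55.6% ± 9.75 of I2 nuclei had Gad1 or Gad2 and no Chat, 26.9% ± 9.26 had both, 5.26% ± 4.67 had Chat alone and 12.2% ± 11.6 had neither. In the 3 lumbar/sacral libraries the first share was 46.1%, 48.1% and 42.1%, below the 51.6% to 70.9% of the cervical and thoracic ones, and nuclei with neither made up 25.5% ± 7.66 (as deposited, at the lower depth given above). In the other I clusters the shares were 18.2%, 35.7%, 32.4% and 13.7%. Chat and Slc5a7 were found together in 7.78% ± 6.49 of I2 nuclei and in 50.5% ± 19.7 of the other I nuclei. A missing count in a nucleus is not absence of the transcript at these depths.

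The 235 I2 nuclei with a Chat count were compared with the 545 without, within each library. Slc5a7 was found in 23.3% of the first and 16.1% of the second, higher in 6 of 9 libraries, a gap of 7.20 ± 15.1 points that did not pass (exact sign-flip permutation test over libraries, two-sided p = 0.168, adjusted p = 0.380 over 6 genes). The gaps were 3.97 points for Slc6a5, 2.37 for Gad2, -3.21 for Pax2, -6.51 for Ache and -8.47 for Slc32a1, with adjusted p from 0.380 to 0.531 in the same exact test. Cervical replicate 2 weighed on 2 of them, with Slc5a7 at 46.7% against 6.25% and Slc32a1 at 26.7% against 93.8%. Without that library the Slc5a7 gap was 3.05 points and the Slc32a1 gap -1.14 points. After thinning, 7 libraries had at least 10 nuclei on each side and the Slc5a7 gap was 7.70 points, with an exact permutation p of 0.0156, the smallest 7 libraries allow, and an adjusted p of 0.0938 that did not pass either. Counted from 2 corrected counts, 2 libraries were left, which allow no p under 0.5, and nothing is read from their values.

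Across all genes, 10532 passed a filter of at least 10 CPM in at least 3 of the sums of corrected counts per library, and by the rule above 171 (1.62%) were higher and 456 (4.33%) lower in I2 than in the other I clusters. The gene farthest up was Chst9, a sulfotransferase that acts on carbohydrate chains. Its I2 level was 387, 452 and 320 CPM in the cervical libraries, 612, 222 and 221 CPM in the thoracic ones and 315, 203 and 318 CPM in the lumbar/sacral ones, while the other I clusters did not exceed 8.03 CPM in any library. The difference was +4.996 ± 0.56 on the log2(CPM + 5) scale, which understates folds over a low level. Slc4a4, a sodium bicarbonate cotransporter, followed at 303 ± 34.3 against 9.18 ± 3.47 CPM (+4.47 ± 0.35), and Il1rapl2, an interleukin-1 receptor accessory-like protein, at 3871 ± 767 against 269 ± 80.6 CPM (+3.85 ± 0.54).

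Of the other genes named as highest by the difference, Lama2, a laminin chain, stood at 155 ± 74.9 CPM in I2 and 5.18 ± 1.36 in the others (+3.84 ± 0.74). The receptor tyrosine phosphatase Ptprk (+3.76), the basement membrane protein Fras1 (+3.02), the proteoglycan Vcan (+2.42), the growth factor Bmp6 (+2.40) and Adamtsl1 (+2.39) were higher as well. So were Csgalnact1 (+2.74) and Mgat4c (+2.44), enzymes that build sugar chains, the potassium channel subunit Kcnmb2 (+2.46), the channel-interacting protein Kcnip3 (+2.44) and the metabotropic glutamate receptor Grm3 (+2.44). Pde5a, which breaks down cGMP, was at 161 ± 50.5 against 21.5 ± 10.3 CPM (+2.71), and the remaining named genes were Etl4, C1qtnf7, Thsd7b, Lmo3 and Atp10a (+2.39 to +3.11). The level was the highest of the 8 I clusters in I2 for 17 of these 20 genes, the exceptions being Csgalnact1, Pde5a and Adamtsl1, which were higher in I7 at 382, 577 and 352 CPM.

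Of the 10 genes farthest down in I2, Cdh8, a cadherin, stood at 26.5 ± 15 CPM in I2 and 635 ± 145 CPM in the others (-4.46 ± 0.57). Sox6 (-4.33), Ebf1 (-4.13) and Zfpm2 (-4.02) encode nuclear regulators, Col25a1 (-4.22) a membrane collagen, Gpc3 (-4.04) a glypican, Pde11a (-4.18) a cyclic nucleotide phosphodiesterase, Npsr1 (-4.11) a neuropeptide receptor and Trhde (-3.84) the peptidase of thyrotropin-releasing hormone. Ankfn1 completed the list (-3.93). I2 was the lowest of the 8 I clusters for 4 of the 10, so a low level of the others was shared with another cluster. Of these 4, Cdh8 stood at 190 CPM in the next lowest cluster, I7. Sox6 (3.31 CPM in I2, 3.64 in I1), Npsr1 (1.30 in I2, 1.74 in I1) and Zfpm2 (17.9 in I2, 20.7 in I7) were about as low in another cluster.

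**Figure D2:**
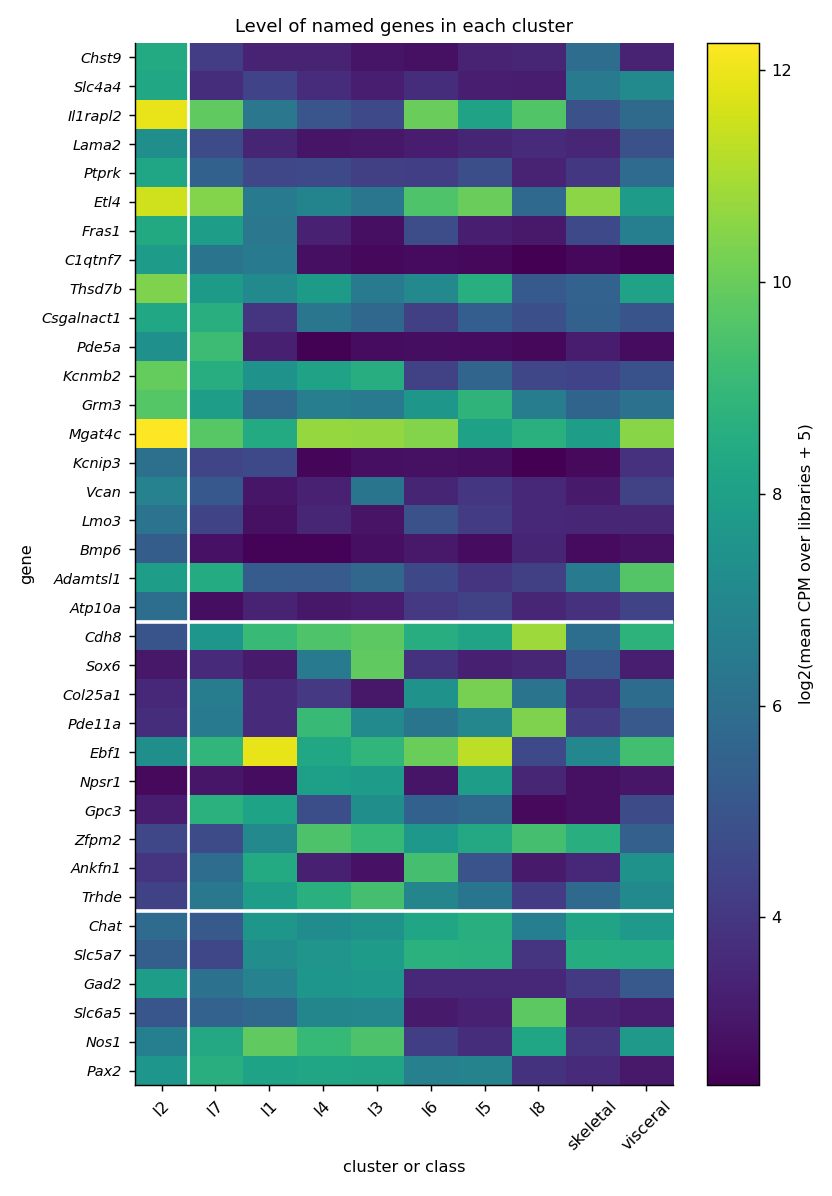
Level of the 20 genes farthest up and the 10 farthest down in I2, and of 6 transmitter genes, as log2 of the mean CPM over libraries plus 5 (colour scale) in each I cluster and in skeletal and visceral motor neurons (columns). Chst9 stands at 339 CPM in I2 and at most at 13.6 CPM in another I cluster, and the I2 column is dark for Cdh8, Sox6 and Npsr1.

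Gene lists of spinal neurons were read by the same rule against the other I clusters pooled, beside a median difference of -0.08 over all 10532 genes. Of all these genes 1.62% were higher and 4.33% lower by the rule, which is the background for the counts here and in the next paragraph. Of 11 factors tied to the birth time of spinal neurons, Tcf4 (1276 against 498 CPM) and Neurod6 (17.4 ± 13.5 against 0.795 ± 0.714 CPM) were higher. Zfhx3 (30.4 ± 8.99 against 425 ± 99.9 CPM), Zfhx4, Nfib, Onecut2, Pou2f2 and Prox1 were lower, with a list median of -1.24. By single cluster, Tcf4 stood near its I2 level in I4 (1262 CPM) and I3 (1057 CPM) and at 93.7 to 327 CPM in the others. Zfhx3 stood at 24.6 to 47.5 CPM in I1, I3, I4 and I7 and at 638 to 1889 CPM in I5, I6 and I8. Zfhx4 stood at 22.7 CPM in I2, 3.11 to 10.6 CPM in I1, I3, I4 and I7 and 171 to 443 CPM in I5, I6 and I8. Nfib stood at 21.7 CPM in I2, 1.48 to 18.6 CPM in I1, I5, I6 and I7 and 99.7 to 304 CPM in I3, I4 and I8. Of 6 inhibitory lineage factors only Satb1 met the rule (293 ± 39.1 against 137 ± 25.7 CPM, list median -0.11), and Pax2 was at 186 against 216 CPM.

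Of 9 genes of nitric oxide and cGMP signalling, Pde5a and Pde9a (60.4 ± 18.3 against 16.2 ± 1.44 CPM) were higher, and Nos1, the neuronal nitric oxide synthase, and Prkg1, the cGMP-dependent kinase, were lower (96.4 ± 77.5 against 508 ± 59.0 CPM and 198 ± 158 against 764 ± 120 CPM). The list median was 0.10. These levels were not particular to I2. I7 held more Pde5a and Pde9a (577 and 78.9 CPM) and less Prkg1 (116 CPM) than I2, and Nos1 stood lower in I5 and I6 (8.01 and 14.1 CPM). Of 4 peptide genes Pnoc, Penk and Cartpt were lower and none higher, and of 9 peptide receptors Npy1r was higher. Among 4 acetylcholine receptor genes the nicotinic subunit Chrna3 was higher (22.5 ± 6.87 against 7.06 ± 1.75 CPM) and the muscarinic receptor Chrm2 lower (107 ± 54.1 against 744 ± 173 CPM). Of 8 laminin and matrix genes Lama1, Lama2, Chst9 and Adamtsl1 were higher and Col18a1 and Reln lower, of 3 calcium-binding proteins Pvalb and Necab1 were higher and Calb2 lower, and of 15 Hox genes Hoxc4 and Hoxc5 were higher. Npy1r, Chrna3 and Lama1 stood about as high in I7 (14.7, 24.2 and 72.6 CPM) as in I2 (14.3, 22.5 and 65.8 CPM). The markers that the study chose on these samples for the I clusters gave 5 higher and 11 lower of 18, which is not independent evidence.

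The I clusters most like I2 were I7 (r = 0.933 across 10532 genes of mean log2(CPM + 5), 6 libraries with at least 10 I7 nuclei), I1 (0.929) and I4 (0.923), and the clusters share their libraries and depth. Against I7, 237 of 10184 genes (2.33%) were higher in I2 and 270 (2.65%) lower. Chat stood at 52.7 CPM in I2 and 31.2 CPM in I7 in those 6 libraries, a difference of 1.23 ± 1.20 that met neither side of the rule, so I2 was not the only interneuron cluster low in Chat. Slc4a4 (+4.91), Chst9 (+4.81) and Gad2 (+1.66 ± 0.43) were higher in I2, and the mechanosensitive channel Piezo2 (-4.27), Gpc3 (-5.53) and Nos1 (-1.68) lower. Slc6a5 met neither side (-0.34 ± 0.70).

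Against I1, 306 of 10424 genes (2.94%) were higher in I2 and 349 (3.35%) lower. Chat (-1.82 ± 0.50) and Ebf1 (157 against 3910 CPM, -5.19 ± 1.40) were lower and Il1rapl2 (+5.64) was higher. Slc6a5 met neither side (-0.77 ± 0.63). Against I4, 318 of 10703 genes (2.97%) were higher and 323 (3.02%) lower. Il1rapl2 (+7.01) and the transcription factor Bcl11a (+5.13) were higher in I2 and Pde11a (-5.50) and Chat (-1.40 ± 0.51) lower, while Gad2 was at 232 CPM in I2 and 189 CPM in I4 and met neither side. Slc6a5 was lower in I2 than in I4 (-2.01 ± 0.72). The pair I2 and I4 thus differed in Chat and not in Gad2 by the rule.

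I2 nuclei of the lumbar/sacral cord differed from those of the cervical and thoracic cord in 49 of 9589 genes (0.511%), 32 higher (0.334%) and 17 lower (0.177%), by limma on log2(CPM + 5) of the sums per library with Benjamini-Hochberg adjusted p under 0.05. Scaling by the median of ratios gave 30 higher and 7 lower, and the replicate block 71 higher and 63 lower, with all 49 called in both fits. Of the 49, all had the 3 lumbar/sacral libraries beyond the 6 others, which held for 1.74% of all genes tested upward and 2.38% downward. Leaving out a library gave 11 to 55 calls, with 12 and 11 calls (10 and 9 of them higher) without lumbar/sacral replicate 2 or 3, and 32, 31 and 32 without cervical replicate 1, cervical replicate 3 or lumbar/sacral replicate 1. Leaving out the cervical and thoracic libraries of replicate 2, whose labels are in doubt, gave 43. Of the 49, 6 (Frem1, Palld, Hoxd11, Il33, Scube2 and Fat1, named for this reason after their values were seen) reached 10 CPM in lumbar/sacral libraries alone, as did 20 of the 9589 genes tested, so they entered the test through the group in which they were high.

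Ebf1, a transcription factor of neuronal differentiation on chr11:44617317-45008091 (GRCm38), led the genes that rose. In I2 it stood at 60.8, 57.5 and 47.8 CPM in the cervical libraries, 49.0, 77.1 and 34.4 CPM in the thoracic ones and 308, 438 and 338 CPM in the lumbar/sacral ones. The lumbar/sacral libraries were all above the others, by 2.64 on the log2 scale (SE 0.22, limma adjusted p = 0.000159). In the other I clusters Ebf1 lay between 1736 and 2178 CPM in every library and differed by -0.03 between the regions. The level in lumbar/sacral I2 thus stayed below that of the other I clusters pooled. By single cluster over all libraries, Ebf1 stood at 3910, 2483 and 1052 CPM in I1, I5 and I6. In I4, I7 and I3 it stood at 316, 469 and 477 CPM, about as high as in lumbar/sacral I2, and in I8 at 19.1 CPM.

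Frem1, a basement membrane protein on chr4:82897920-83052339, was listed at 0 in I2 of 5 of the 6 cervical and thoracic libraries and at 1.09 CPM in thoracic replicate 2. In lumbar/sacral I2 it stood at 46.6, 44.5 and 52.6 CPM (+3.35, SE 0.29, a size that depends on the pseudocount). Like Palld below, Frem1 reached 10 CPM in those libraries alone, so its call between the regions is not read as support for a difference. In the other I clusters it was between 4.25 and 13.2 CPM, without a called difference. Ephb1, a receptor tyrosine kinase of axon guidance, stood at 99.1, 59.6 and 105 CPM in cervical, 77.7, 73.9 and 81.1 in thoracic and 419, 368 and 328 CPM in lumbar/sacral I2 (+2.12, SE 0.18, limma adjusted p = 0.000159). Nell2, a secreted protein of axon guidance (+1.98), the acid-sensing channel Asic2 (+1.78), Pld5 (+1.70), the guanine nucleotide exchange factor Rasgrf1 (+1.40), the potassium channel Kcnh7 (+2.12), Ltbp1 (+1.68), the calcium channel Cacna1e (+1.57) and the actin-associated Palld (+2.60) completed those of lowest p, with limma adjusted p from 0.000159 to 0.00878. All of these kept their direction in each fit without a library that tested them (Frem1 and Palld fell under the filter without a lumbar/sacral library), and Ltbp1 lost its call without lumbar/sacral replicate 2, Kcnh7 and Cacna1e without replicate 3.

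Genes lower in I2 than in the other I clusters pooled were among those that rose. None of those given here was lowest in I2. Over all libraries, Nos1 and Slc6a5 stood lower in I5 (8.01 and 5.03 CPM) and I6 (14.1 and 3.73 CPM) than in I2 (96.4 and 27.9 CPM). Prkg1 and Slc5a7 stood lower in I7 (116 and 17.8 CPM) and I8 (54.7 and 10.0 CPM) than in I2 (198 and 37.4 CPM). Nos1, on chr5:117781032-117958840, stood at 41.0, 28.8 and 59.8 CPM in cervical, 23.7, 89.1 and 39.3 CPM in thoracic and 168, 213 and 205 CPM in lumbar/sacral I2 (+2.06, SE 0.32, limma adjusted p = 0.0148). The Nos1 share of I2 nuclei as deposited was 15% to 38.7% in the cervical and thoracic libraries and 37.9% to 48.8% in the lumbar/sacral ones, and after thinning 6.45% to 19.4% and 33.3% to 44.2%, so the ranges overlapped before and not after thinning. Prkg1 stood at 124, 146 and 126 CPM in cervical, 47.3, 91.3 and 49.1 CPM in thoracic and 430, 446 and 318 CPM in lumbar/sacral I2 (+2.08, SE 0.20, limma adjusted p = 0.000425). The choline transporter Slc5a7 stood at 39.7, 41.1 and 18.6 CPM in cervical, 11.8, 13.0 and 12.3 CPM in thoracic and 59.1, 70.2 and 70.9 CPM in lumbar/sacral I2 (+1.51, SE 0.24, limma adjusted p = 0.0173). The glycine transporter Slc6a5 was at 12.3 to 22.8 CPM in the 6 cervical and thoracic libraries and at 40.5 to 55 CPM in the lumbar/sacral ones (+1.15, SE 0.21, limma adjusted p = 0.0332).

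In all, 10 of the 32 genes that rose were lower in I2 than in the other I clusters by the rule above and 2 were higher, beside 2.65% and 1.78% of the 9589 genes tested in I2. Of the 17 genes that fell, 3 were higher and 2 lower by that rule. Of the 10 genes farthest down in I2, Ebf1 rose, and of the other 9 the 5 that passed the filter in I2 differed by -0.58 to 0.74 with limma adjusted p of at least 0.803. The part that nuclei of other clusters assigned to I2 have in the called differences was not tested. Within I2, fewer nuclei with a transcript and less of it in each cannot be told apart from the sums.

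Chat itself passed no test between the regions. It stood at 38.3, 37.0 and 77.0 CPM in cervical, 32.1, 44.5 and 46.7 CPM in thoracic and 64.5, 67.9 and 68.8 CPM in lumbar/sacral I2, a difference of 0.55 (SE 0.23, limma adjusted p = 0.72) with overlapping libraries. Gad2 stood at 284, 234 and 347 CPM in cervical, 284, 271 and 182 CPM in thoracic and 197, 122 and 164 CPM in lumbar/sacral I2, a difference of -0.71 (SE 0.20, limma adjusted p = 0.218) that did not pass. Its thinned shares of nuclei were 64.0% to 73.7% in the cervical and thoracic libraries and 40.3% to 60.5% in the lumbar/sacral ones, a smaller gap than before thinning. Chst9 and Lama2 differed by -0.33 and -1.03 and were not called either.

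**Figure D3:**
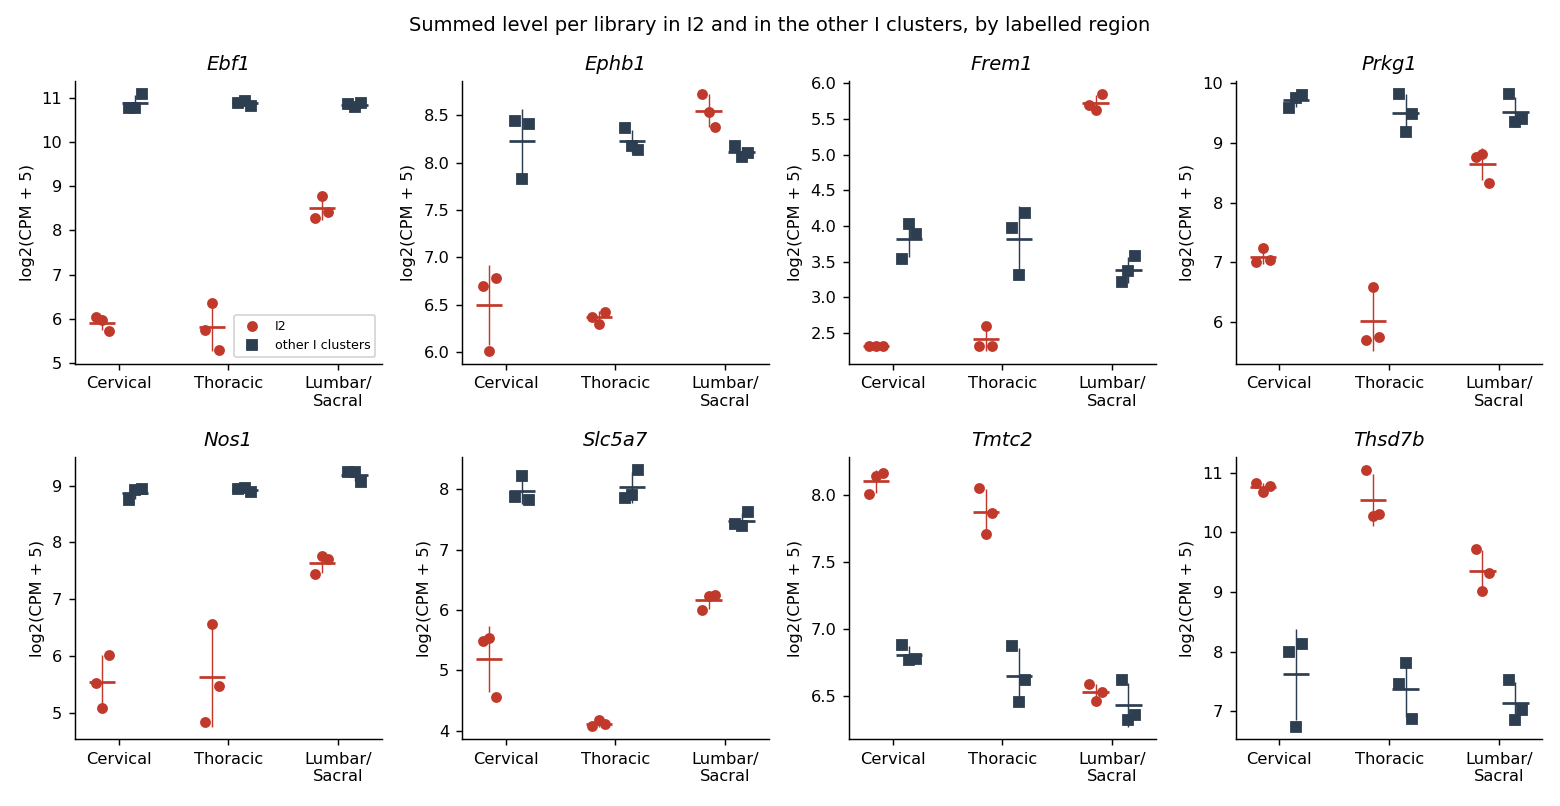
Summed level per library, log2(CPM + 5) on the y axis, of 8 genes in I2 (circles) and in the other I clusters (squares) by labelled region (x axis), with the mean (bar) and the SD over 3 libraries (line). Ebf1, Ephb1, Frem1, Prkg1, Nos1 and Slc5a7 lie higher and Tmtc2 and Thsd7b lower in the 3 lumbar/sacral I2 libraries than in the other 6, and the y axes differ between panels.

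The genes that fell in lumbar/sacral I2 were led by Tmtc2, a protein of the endoplasmic reticulum. It stood at 252, 277 and 283 CPM in cervical, 260, 204 and 228 CPM in thoracic and 91.3, 83.1 and 87.1 CPM in lumbar/sacral I2 (-1.47, SE 0.13, limma adjusted p = 0.000159). Sdk2, a synaptic adhesion protein, stood between 59.5 and 115 CPM in the 6 cervical and thoracic libraries and at 17.9, 25.8 and 28.3 CPM in the lumbar/sacral ones (-1.65, SE 0.22, limma adjusted p = 0.00672). Thsd7b, among the 20 genes farthest up in I2, stood between 1226 and 2114 CPM in the first 6 and at 838, 509 and 636 CPM in the lumbar/sacral ones (-1.30, SE 0.20, limma adjusted p = 0.0148). Man1a, Pam, an enzyme of peptide amidation, Pid1, Greb1l, Lpcat2, Zfp804b, Kctd8, an auxiliary subunit of GABA-B receptors, Mpped2 and Plcl1 fell by 0.80 to 1.59 on the log2 scale, with limma adjusted p from 0.0105 to 0.0417. Of these, 7 (Pid1, Greb1l, Lpcat2, Zfp804b, Kctd8, Mpped2 and Plcl1) lost their call under the median of ratios scaling, and all 9, with Thsd7b, lost it without lumbar/sacral replicate 2 and again without replicate 3. Without the 2 libraries whose labels are in doubt Greb1l, Lpcat2, Kctd8 and Plcl1 lost it as well.

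By the lists, 1 of 5 acetylcholine genes (Slc5a7), 1 of 8 GABA and glycine genes (Slc6a5), 2 of 9 nitric oxide and cGMP genes (Nos1 and Prkg1), 1 of 13 Hox genes (Hoxd11) and 1 of 11 markers chosen by the study (Cpne4) rose in lumbar/sacral I2, beside 0.334% of all genes tested. Hoxd11 entered the test through the lumbar/sacral libraries alone, in which it was high. No member of these lists fell, and none of the birth-time, inhibitory lineage, peptide, peptide receptor, acetylcholine receptor, matrix or calcium-binding lists was called. At 0.511% of all genes called, a list of this size with no call tells nothing about its members.

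The other I clusters showed fewer called differences between the same libraries, 11 of 9842 genes (0.112%), 2 higher (0.0203%) and 9 lower (0.0914%), or 39 with the replicate block, and Hoxd11 and Sema5a were called in both. The difference between the regional differences was itself tested within libraries, as the I2 level minus that of the other I clusters, and 40 of 10532 genes (0.380%) were called, 26 higher (0.247%) and 14 lower (0.133%). The count moved with the pseudocount, from 10 at 1 to 141 at 20, and was 10, 6 and 7 without lumbar/sacral replicates 1, 2 and 3. It was 25 without cervical replicate 1, thoracic replicate 1 or thoracic replicate 3, 49 without both doubtful libraries and 27 with the block, of which 24 were among the 40.

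Frem1 was the gene of lowest p (3.78, SE 0.25, limma adjusted p = 0.000119). In I2 it reached 10 CPM in the lumbar/sacral libraries alone, so this call is not read as support either. Ephb1 (2.23), Asic2 (1.44), Kcnh7 (1.88) and Ebf1 (2.67) rose in I2 beyond the other clusters pooled. Sema5a, a semaphorin of axon guidance, rose in I2 and was lower in the other I clusters pooled. It stood at 2.46 to 22.6 CPM in cervical and thoracic I2 and at 57.3, 85.5 and 58.7 CPM in lumbar/sacral I2 (+2.20, limma adjusted p = 0.0118), while in the other I clusters it was 108 to 177 CPM in cervical and thoracic and 64.5, 58.5 and 76.5 CPM in lumbar/sacral libraries (-0.98, limma adjusted p = 0.0323). Slc5a7 rose in I2 by 1.51 and differed by -0.52 in the others, a difference of 2.03 (SE 0.29, limma adjusted p = 0.0164). The mix of the other I clusters moved with the region, I5 and I6 making up 26.7% to 35.4% of their nuclei in the cervical and thoracic libraries and 13.0% to 19.5% in the lumbar/sacral ones. Sema5a stood at 216 and 403 CPM in I5 and I6 and at 3.59 to 20.8 CPM in I1, I3 and I4. With each of the other clusters of at least 10 nuclei in a library given equal weight, Sema5a differed by -0.57 in them and was not called (limma adjusted p = 0.9995), so the call in the others was lost, while the difference from I2 stayed called at 2.77 (limma adjusted p = 0.0171), as did that of Slc5a7 at 1.99 (limma adjusted p = 0.0231). Prkg1 differed by 2.16 (limma adjusted p = 0.0299). For Nos1 the difference of 1.77 did not pass (limma adjusted p = 0.102), nor did that of 0.96 for Chat (limma adjusted p = 0.261) or that of -0.79 for Gad2 (limma adjusted p = 0.143).

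**Figure D4:**
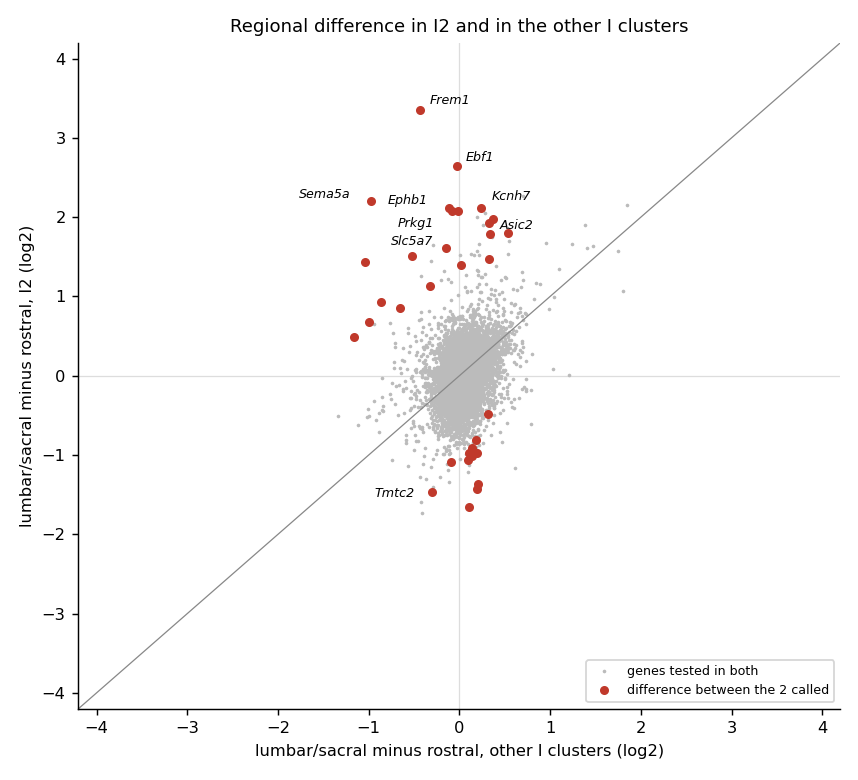
Lumbar/sacral minus cervical and thoracic difference (log2) in I2 (y axis) against that in the other I clusters of the same libraries (x axis), 1 point for each of 9187 genes tested in both, with the 33 of them whose difference between the 2 was called as large points and the line of equality. Frem1, Ebf1 and Ephb1 lie high on the y axis near 0 on the x axis. Sema5a lies at 2.20 on the y axis and -0.98 on the x axis. In I2, Frem1 reached 10 CPM in the lumbar/sacral libraries alone.

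Between cervical and thoracic I2 no gene was called by limma (0 of 9589, with 360 at an unadjusted p under 0.05), with or without the replicate block. Without the cervical and thoracic libraries of replicate 2 the only call was Hoxc5, whose values above are among those that singled these libraries out, so this adds nothing to them.

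Between the male and the female pool 4 of 9177 genes (0.0436%) were called with region as a term, Xist, the X-inactivation transcript, lower in male libraries (0.0109% of genes) and Uty, Eif2s3y and Kdm5d, which lie on chromosome Y, higher (0.0327%). Each sex was 1 pool of 4 mice, so sex and pool cannot be told apart. The male pool was replicate 2, so its cervical and thoracic libraries are those whose labels are in doubt. The region term rests on these labels, and no fit without both libraries is given. With no region term the 4 genes kept their call. The count ran from 1 to 445 when a library was left out, with 393 without cervical replicate 2, 445 without cervical replicate 3, 1 without thoracic replicate 2 or lumbar/sacral replicate 2 and 2 without lumbar/sacral replicate 3.

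I2 nuclei varied among themselves in genes found in part of them. The 12 genes with the highest variance for their mean across libraries were Kcnip4, Gm32647, Sorcs3, Pcdh15, Zfp804b, Dcc, Cntn3, 6530403H02Rik, Kcnq5, Erbb4, Fam19a1 and March1, each found in 25.5% to 80% of I2 nuclei. Detection of Sorcs3, a sorting receptor, went with that of the secreted Fam19a1 (mean phi 0.52 ± 0.20 over 9 libraries, range 0.21 to 0.88) and of Gm32647 (0.43 ± 0.13). Zfp804b, a zinc finger gene, was found apart from 6530403H02Rik (-0.47 ± 0.12, range -0.70 to -0.33) and from Sorcs3 (-0.35 ± 0.19). Phi is the correlation of detection over the nuclei of a library, which share its depth, and is given as a description.

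**Figure D5:**
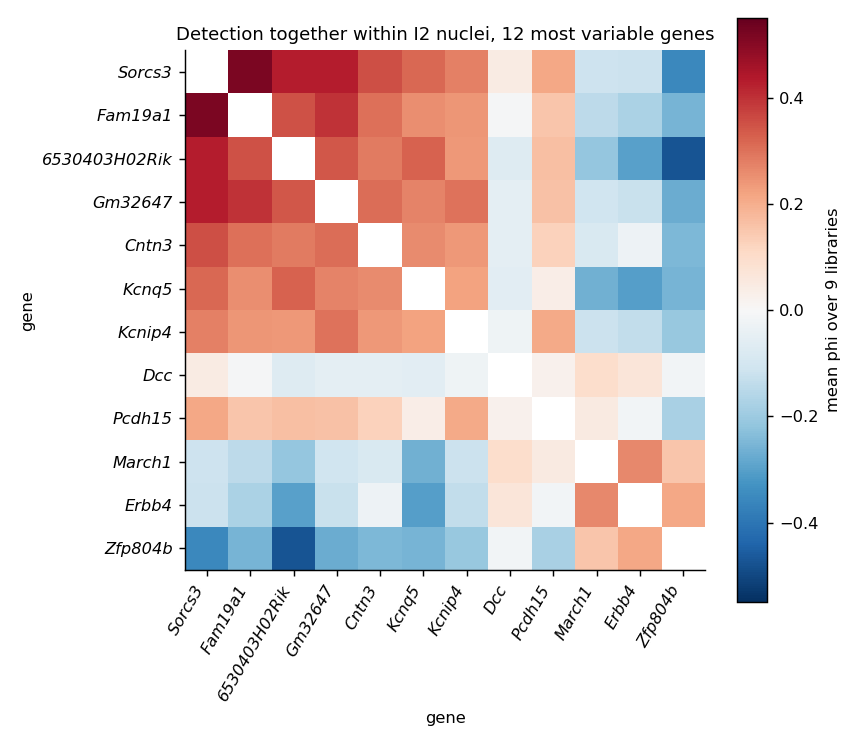
Mean phi over 9 libraries (colour scale) between the detection of each pair of the 12 most variable genes over I2 nuclei (both axes list the genes). Sorcs3, Fam19a1, 6530403H02Rik and Gm32647 were found together and Zfp804b apart from them, with the strongest opposite pair at -0.47.

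Sorcs3 was found in 29.1% to 50.9% of I2 nuclei in the cervical and thoracic libraries and in 50.4% to 54.7% in the lumbar/sacral ones as deposited, ranges that overlapped, and in 22.4% to 43.6% and 46.5% to 60% after thinning, which did not. Its share was not tested. Zfp804b was found in 67.3% to 87.1% and 48.8% to 59.4% as deposited and in 56.4% to 76.1% and 43.4% to 48.9% after thinning, ranges that overlapped in neither case, and its summed level was called lower in lumbar/sacral I2 (-1.01, SE 0.18, limma adjusted p = 0.0257). Splitting I2 nuclei by a Gad2 count within the 6 libraries with at least 10 nuclei on each side, a description added after the values were seen, Chst9 was in 62.0% of those with and 48.1% of those without Gad2 (higher in 5 of 6), Lama2 was higher in 6 of 6 by 6.81 points and Nos1 was lower in 5 of 6, by 9.70 points.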

How the data were processed

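Nuclei were sorted for GFP and DNA dye and sequenced as 10X libraries, 1 for each of 3 regions in each of 3 pools of 4 mice. Per the labels, the authors used Cell Ranger 3.1.0, Seurat and DESeq2 on mm10. The deposited matrix holds 21457 features for 16042 cholinergic nuclei. Its values are a score, whole SCTransform-corrected counts, in which the authors evened out depth within a library, so no count model was used. Depth still differed between libraries (median corrected total of I2 nuclei 4408 to 16309), which limits the precision of low genes. The deposited annotation gave clusters and libraries, and 0 columns of other samples were set aside. No doublet caller was run, and the nuclei were used as the authors filtered them.

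Corrected counts were summed per library over I2 and over the other I clusters, scaled to CPM and tested as log2(CPM + 5) with limma 3.58.1 (trend, R 4.3.3) where 3 or more sums reached 10 CPM. The design had a term for each region, and lumbar/sacral was set against the mean of cervical and thoracic. Adjusted p under 0.05 was called. Shares were compared by exact permutation with scipy 1.17.1 in Python 3.11.15. Fits were tested on simulated data. Named were the 20 genes farthest up and 10 farthest down by the rule, the 12 of lowest p each way between regions and 10 for the difference of differences, without gene models lacking a symbol, plus list members. The 12 variable genes keep gene models and had to be found in 5% to 80% of I2 nuclei. Members and lists were chosen with earlier results of these data known. Gene positions are from GENCODE on GRCm38, the build of the files.

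Same-numbered libraries came from the same pool of mice, so the numbers pair the samples. Their deviations from the region means correlated at -0.09 to 0.64 over 9 pairs, against -0.56 to 0.39 over 18 pairs of other numbers. The replicate block was an alternative, as were pseudocounts of 1 and 20, no filter, the median of ratios scaling, other comparison clusters and leaving out each library. Some genes of the lists are not reported here.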

Additional observations from a re-analysis of the deposited data

Results flagged for a closer look

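For 10 genes the lumbar/sacral against cervical and thoracic difference in I2 departed from that in the other I clusters of the same libraries in a test of the difference itself (limma within libraries, adjusted p from 0.000119 to 0.00977). The difference of the differences, on the log2 scale, was 3.78 for Frem1, 2.23 for Ephb1, 1.44 for Asic2, 1.88 for Kcnh7, 3.18 for Sema5a, 1.93 for Il33 and 2.67 for Ebf1. It was -1.81 for Rxfp2, -1.17 for Tmtc2 and -1.17 for Greb1l. In I2, Frem1 reached 10 CPM in the lumbar/sacral libraries alone, so its call is not read as support. Rxfp2, a relaxin family receptor, was at 0 to 2.46 CPM in every I2 library. In the other I clusters pooled it was at 0.228 to 1.69 CPM in cervical and thoracic and 15.2 to 16.0 CPM in lumbar/sacral libraries. Over all libraries it stood at 72.9 ± 91.4 CPM in I8 and at 0.364 to 2.10 CPM in I1 and I3 to I7. The I2 level of Rxfp2 was 0.660 CPM, so its departure was not particular to I2. With only I1 and I3 to I6 pooled, 9 of the 10 genes were tested and kept their call. Il33, a cytokine, stood at 0 to 4.11 CPM in cervical and thoracic I2 and at 23.3, 18.7 and 14.2 CPM in lumbar/sacral I2, and at 1.42 to 5.93 CPM in the other I clusters of all libraries. Il33 reached 10 CPM in the lumbar/sacral I2 libraries alone and Rxfp2 in the lumbar/sacral libraries of the other I clusters alone, so each entered the test through the group in which it was high. Without a lumbar/sacral library these 2 fell under the filter, and of the 8 genes then tested Ebf1 lost its call without replicate 1, 2 or 3, Greb1l without replicate 2 or 3 and Sema5a without replicate 2. Il33 lost its call with no filter on low values, and Rxfp2, Sema5a and Ebf1 lost theirs at a pseudocount of 1 (-3.21, 3.64 and 2.76). All 10 kept their call without both replicate 2 libraries whose labels are in doubt.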

How the results depend on the processing

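Of 24 genes named between the regions, all kept their direction under every alternative run. The count of 49 went to 134 with the replicate block and, as alternatives chosen after seeing the data, to 123 with cervical and thoracic as 1 group and the block, and it ran from 11 to 55 when a library was left out. The difference of differences (40) gave 10 and 141 calls at pseudocounts of 1 and 20, 16 with no filter, 61 with cervical and thoracic as 1 group, and 6 to 45 without a library. Cervical against thoracic gave 0 to 0 without a library and 1 (Hoxc5) without both replicate 2 libraries. The sex count of 4 went to 39 with no filter and 7 with the median of ratios, and to 1 to 445 without a library. At a pseudocount of 20, 108 genes were higher and 212 lower in I2 than in the other I clusters, and the 30 named genes kept their side. The lumbar/sacral share of I2, -0.657 points from the rest, was 1.51 points over cholinergic nuclei, 0.477 without both replicate 2 libraries, and -2.37 to 0.822 without a library, and with the block it stayed -0.657 (exact p = 0.139). From 2 counts, the I2 gap was -0.230 points for Slc32a1, -1.36 for Pax2 and 0.276 for the reporter, and Pax2 was -1.63 against I1 and I3 to I6. Between I2 nuclei with and without Chat (9 libraries, 7 thinned and 2 from 2 counts, none past adjustment), Slc5a7 was 7.70 points thinned and -2.44 from 2 counts, Gad2 -2.82 and -10.5 (-0.138 to 3.55 without a library), Pax2 0.918 and 18.4, Slc32a1 3.36 thinned and Ache 5.51 from 2 counts. The cause of these changes was not tested. The block changed no other call named. Depth limits genes listed near 0, and 64.8% of lumbar/sacral replicate 1 was lost to thinning.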
